A study of Mus musculus with 1 sample.

Results

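The carriers described here move amino acids, sugars and short monocarboxylic acids such as lactate across cell membranes. They were taken by gene symbol, as every probe whose platform symbol belongs to the solute carrier families SLC1, SLC2, SLC3, SLC5, SLC6, SLC7, SLC16, SLC32, SLC36, SLC38 and SLC43. That gave 99 probes for 94 genes, of 19321 named genes on the array. The sample was the parental RAW264.7 line, mouse cells with macrophage traits, grown in RPMI-1640 with 10% fetal calf serum, and its RNA was read on 1 array in the dye Cy5. The study asked which genes let these cells take up added peroxiredoxin, by comparing them with lines mutated with ENU that lost the uptake. Arrays of mutant lines were not analysed here, so no group was compared with another, there are no replicates and no p-value is given. In a bulk extract, fewer cells with a transcript and less transcript per cell cannot be told apart.

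A growing macrophage takes in glucose through facilitative carriers of the SLC2 family, runs glycolysis and sends the lactate out with protons through SLC16 carriers. Essential amino acids enter mainly by exchange, in which a light chain of the SLC7 family, held at the membrane by a heavy chain of the SLC3 family, swaps an inner amino acid for an outer one. Glutamine taken up with sodium by SLC1 and SLC38 carriers is a common currency for that exchange. Sodium-driven carriers of SLC5 and SLC6 concentrate solutes such as glucose, taurine, creatine or neurotransmitters, and are best known from gut, kidney and nerve.

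Signals are spot medians in arbitrary units with no background subtracted. A gene takes its highest probe. The blank limit, 22.98, is the trimmed mean plus 2 SD of the empty spots, whose SD was 1.18. A stricter one, called the receptor limit and set at 55.8, is the level that 95% of the 1221 probes for receptors of smell and taste do not exceed. Such cells have little known use for those receptors. Brightness depends on the probe as well as on the transcript, so each call rests on these limits. Where readings of several genes stand side by side, a difference in signal is not read as a difference in transcript. A low reading may come from a poor probe. On the 24 copies of each positive control the signal varied with a CV of 4.98% and 5.37%, which is a spread within this array and not between samples. All 10 macrophage markers lay over the receptor limit, from 109 for Itgam to 46513 for Lyz2. Of 33 markers of neurons and glia, kidney and gut, muscle and fat, and liver, 4 did, namely Fgb at 176, Ryr1 at 94.0, Alpi at 73.1 and Vil1 at 56.0. Over the blank limit lay 20 of these 33 markers, or 60.6%, and 37.3% of the 1210 chemosensory receptor genes. A reading between the limits is therefore not taken as signal of the gene. Some chemosensory receptors passed the receptor limit too, so a reading over it does not by itself show the transcript. The highest of them read over every carrier except Slc16a1, Slc1a5, Slc3a2, Slc2a6, Slc16a3 and Slc6a12.

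The share of carriers over each limit was under that of all genes on this array. Over the blank limit lay 60 of the 94 carriers, or 63.8%, where the background over all named genes was 72.8%. At the receptor limit these were 29 carriers, or 30.9%, where the background was 42.7%. Another 31 lay between the limits and 34 were not over the blanks. The median of the carriers was 29.0 and that of all named genes 40.1. The 234 other solute carrier genes stood close to all genes, with 76.9% over the blank limit, 41.9% over the receptor limit and a median of 40.3. Signals over 10 times the blank limit were read from 13 carriers, or 13.8%, and from 20.9% of all genes. These shares describe 1 array and carry no test.

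**Figure D1:**
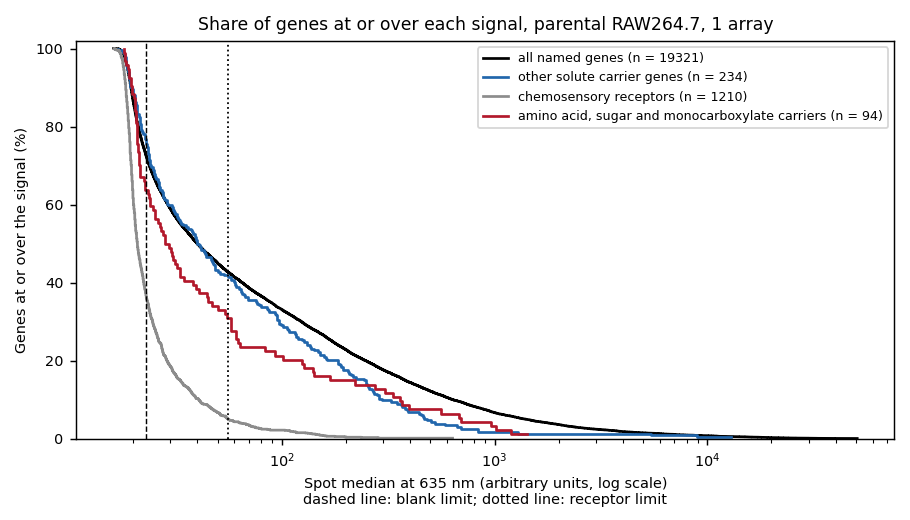
Share of genes (%, vertical axis) at or over each signal (spot median in arbitrary units, log axis) for the 94 carriers, 234 other solute carrier genes, 1210 chemosensory receptors and all 19321 named genes on 1 array. At the blank limit (dashed) the carriers stand at 63.8% and all genes at 72.8%, and at the receptor limit (dotted) at 30.9% and 42.7%.

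By family, the count over the receptor limit ran from 0 to 6 genes. SLC2 had 5 of 11 genes over the receptor limit, SLC38 had 5 of 11 and SLC16 had 6 of 13, shares of 45.5%, 45.5% and 46.2% that are near the 42.7% of all genes. SLC6 had 3 of 17, SLC5 had 2 of 11 and SLC1 had 1 of 7. SLC7 stood at 4 of 14, the SLC36 family had 0 of 4, and SLC43 had 1 of 3. With so few genes in a family, 1 gene can move these shares far, and in SLC43 1 gene makes 33.3%.

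**Figure D2:**
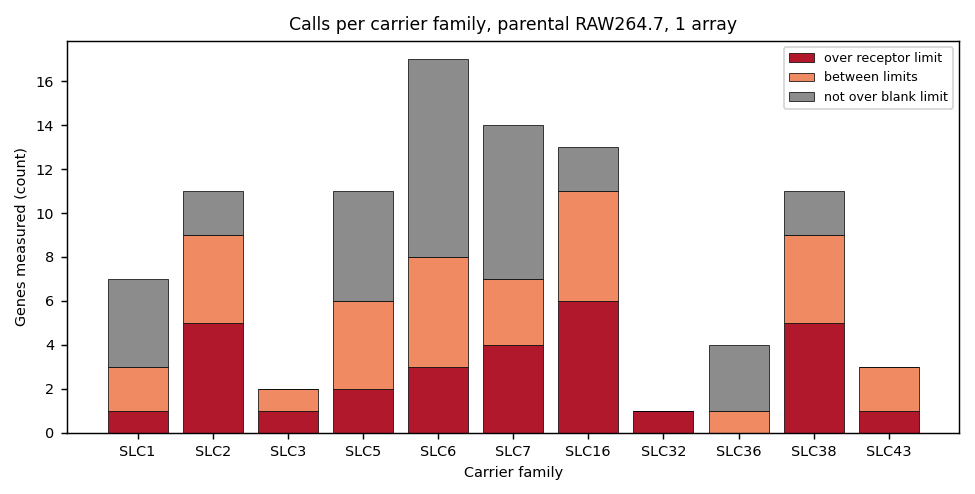
Number of genes (vertical axis) in each of the 11 carrier families that lay over the receptor limit, between the limits, or not over the blank limit, on 1 array of parental cells. SLC6 is the family with the most genes, 17, and 9 of them were not over the blank limit. The share of SLC6 genes over that limit was 47.1%, beside 72.8% of all genes.

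Carriers of glutamine and other small neutral amino acids lie in the SLC1 and SLC38 families. Slc1a5 encodes ASCT2, which exchanges glutamine, serine and similar amino acids with sodium. Its probe read 1197, or 52.1 times the blank limit, and 571 in the authors' deposited table. Slc1a4, which encodes the related exchanger ASCT1, read 20.8 and was within the range of empty spots. In the SLC38 family Slc38a1, a sodium-coupled glutamine carrier of the plasma membrane, read 559, or 24.3 times the blank limit. Slc38a2, the SNAT2 carrier that cells make more of when amino acids run short, read 140.3.

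Further SLC38 members over the receptor limit were Slc38a6 at 142, Slc38a9 at 125 and Slc38a10 at 58.1. SLC38A9 sits in the lysosome, where it reports arginine to the growth kinase mTORC1. The Slc38a6 spot stood 1.35 times over its local background of 105, so its margin over its surroundings was smaller than that of Slc38a9, at 2.75 times. Slc38a3, Slc38a5, Slc38a7 and Slc38a11 lay between the limits, from 30.6 to 45.2. Slc38a4 at 20.9 and Slc38a8 at 21.6 were not over the blanks. Slc38a1, Slc38a2 and Slc38a4 lie next to one another on mouse chromosome 15, and the former pair lay over the receptor limit while Slc38a4 was not over the blanks.

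**Figure D3:**
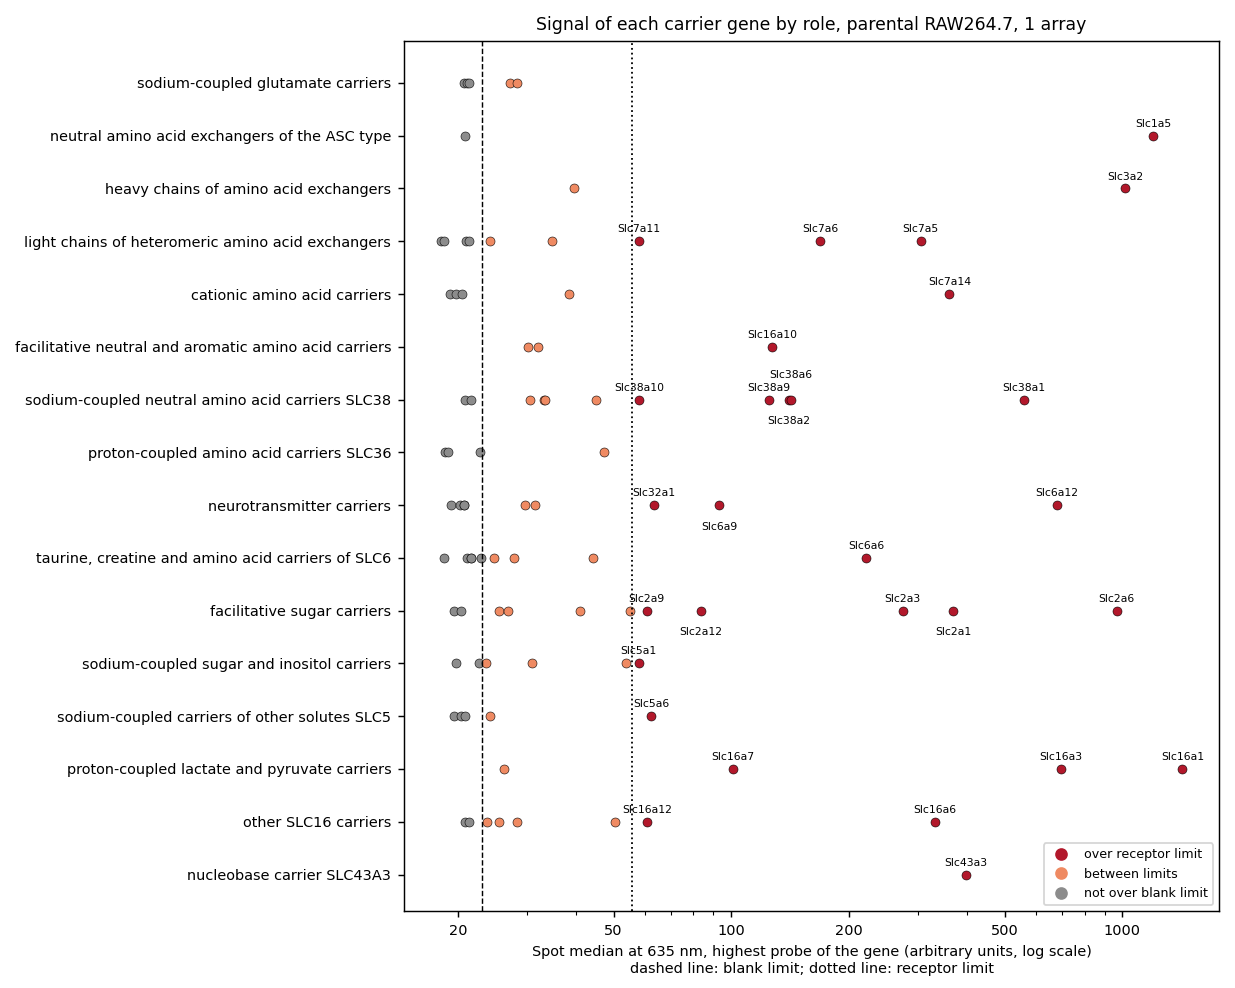
Signal of each of the 94 carrier genes (highest probe, spot median in arbitrary units, log axis), in rows by role, on 1 array. Points are single genes, coloured by call, and names mark the 29 genes over the receptor limit (dotted line); the glutamate and SLC36 rows hold no such gene, and 13 genes in other rows pass 10 times the blank limit (dashed line).

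Of the heavy and light chains of the exchangers, Slc3a2 and 3 of 9 light chains lay over the receptor limit. The share of the light chains, 33.3%, was under the 42.7% of all genes. Slc3a2 encodes CD98, the heavy chain shared by most of them. It read 1018, or 44.3 times the blank limit. Slc3a1, the heavy chain of the kidney and gut cystine carrier, gave 39.7 on 1 probe and 22.8 on the other, which fall on different sides of the blank limit. Its light chain Slc7a9 read 18.1.

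Among the light chains that pair with CD98, Slc7a5 (LAT1, for large neutral amino acids such as leucine) read 305, or 13.3 times the blank limit. Slc7a6 (y+LAT2, which exchanges cationic for neutral amino acids) read 169, at 1.34 times its local background of 126. Slc7a11 encodes xCT, which brings in cystine for glutathione in exchange for glutamate. Its probe M200013849 read 58.1, just over the receptor limit, and its other probe read 24.7, just over the blanks. Those readings differ 2.35-fold, so the call for this gene depends on the probe. Slc7a10 at 34.8 and Slc7a8 (LAT2) at 24.1 lay between the limits, the latter within 1 SD of the blank limit. The light chains Slc7a12, Slc7a13 and Slc7a15, not counted here as partners of CD98, read from 18.4 to 21.3 and were not over the blank limit. Slc7a7 was not analysed here.

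The promoters of the heavy chain and of its cystine light chain are shown because the product of each needs the other to carry cystine. The 250 bases before the start of each gene are shown from RefSeq (GRCm38.p6), for Slc3a2 at chr19:8713898-8714147 and for Slc7a11 at chr3:50443614-50443863, both on the minus strand. Capitals mark matches on either strand to any of 4 motifs: TGATGNAA, the C/EBP-ATF response element through which ATF4 acts in amino acid shortage, TGACNNNGC, the core of the antioxidant response element bound by NRF2, the E-box CACGTG, and the GC box GGGCGG.
Slc3a2: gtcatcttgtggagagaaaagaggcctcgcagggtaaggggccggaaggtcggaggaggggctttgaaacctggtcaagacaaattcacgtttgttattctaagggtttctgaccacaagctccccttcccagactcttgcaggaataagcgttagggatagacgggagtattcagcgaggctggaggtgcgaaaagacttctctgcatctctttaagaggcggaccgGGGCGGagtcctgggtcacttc
Slc7a11: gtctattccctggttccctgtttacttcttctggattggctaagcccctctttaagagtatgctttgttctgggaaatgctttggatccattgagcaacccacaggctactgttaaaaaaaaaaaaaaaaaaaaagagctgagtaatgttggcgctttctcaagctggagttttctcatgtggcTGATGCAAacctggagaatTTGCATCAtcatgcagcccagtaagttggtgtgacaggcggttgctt
The Slc7a11 window holds the C/EBP-ATF letters at 2 places, in opposite directions, beginning 66 and 47 bases before the start. Of all 32851 promoter windows in the table, 3.45% hold these letters at least once and 0.0396% at 2 or more places. The Slc3a2 window holds a GC box, as do 32.7% of all windows, and 11 CG pairs, whereas that of Slc7a11 holds 2 CG pairs and the median window 6. A match of letters is a description and was not tied to the readings by any test. Windows were found for 68 of the 94 carriers, or 72.3%, which is too few for a comparison of promoters over the whole set, so that check is void.

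Of the 5 genes of the cationic amino acid carrier branch of SLC7, 1 lay over the receptor limit and 1 between the limits. Of all genes, 42.7% passed the receptor limit and 72.8% the blank limit. Slc7a1, which encodes CAT1, the usual route for arginine into dividing cells, read 19.8, under the mean of the empty spots. Slc7a2, the CAT2 carrier that activated macrophages use to feed nitric oxide synthesis, read 19.1, and Slc7a3 read 20.5. None of the 3 passed the blank limit in any setting tried. Slc7a4 lay between the limits at 38.5. Slc7a14, a related protein of lysosomes that is best known from the retina, read 361, or 15.7 times the blank limit and 4.21 times its local background. Each of these genes has 1 probe, and whether the Slc7a1 probe responds to its transcript was not tested. The promoter of Slc7a1 at its outer start, chr5:148399905-148400154 on the minus strand, is shown because the gene is known for wide use but read at blank level here. The window has 21 CG pairs.
Slc7a1: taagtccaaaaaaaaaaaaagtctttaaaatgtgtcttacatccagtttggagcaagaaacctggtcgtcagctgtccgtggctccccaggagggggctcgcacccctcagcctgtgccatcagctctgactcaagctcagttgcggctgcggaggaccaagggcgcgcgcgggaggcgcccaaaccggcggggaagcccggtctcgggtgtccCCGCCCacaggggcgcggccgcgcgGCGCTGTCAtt
It holds a GC box and, next to the start, the antioxidant response letters, which 10.2% of all windows hold.

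The remaining amino acid carriers of the plasma membrane and lysosome gave mostly low signal. Slc16a10, which encodes TAT1, a facilitative carrier of aromatic amino acids, read 127. Slc43a1 and Slc43a2 (LAT3 and LAT4) lay between the limits at 30.2 and 32.1. Slc43a3, which carries purine nucleobases rather than amino acids, read 397, or 17.3 times the blank limit. Of the proton-coupled SLC36 carriers, Slc36a4 read 47.3. Slc36a1, the lysosomal carrier PAT1, read 18.9, and its neighbours on chromosome 11, Slc36a2 and Slc36a3, read 18.5 and 22.8. The 5 sodium-coupled glutamate carriers, which clear glutamate from synapses, read from 20.7 to 28.3. Of these, Slc1a6 and Slc1a7 lay between the limits, and Slc1a1, Slc1a2 and Slc1a3 did not pass the blanks on any of their probes.

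Neurotransmitter carriers passed the receptor limit at 3 of 9 genes, or 33.3%, under the 42.7% of all genes. Slc6a12, which encodes BGT1, a carrier of betaine and GABA that protects cells from osmotic stress, read 679.6, or 29.6 times the blank limit, 7.87 times its local background, and 320 in the authors' deposited table. Its neighbour on chromosome 6, Slc6a13, a GABA and taurine carrier, read 29.6. Slc6a9, the glycine carrier GlyT1, read 93.1. Slc32a1, which loads GABA and glycine into synaptic vesicles, read 63.5, close to the receptor limit. The carriers for dopamine (Slc6a3), serotonin (Slc6a4), glycine at spinal synapses (Slc6a5) and GABA (Slc6a11) read from 19.2 to 20.7, and the noradrenaline carrier Slc6a2 read 31.5. The 9 markers of neurons and glia measured on the same array read from 18.3 to 33.0, with 6 between the limits and 0 over the receptor limit.

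Among the SLC6 carriers of other solutes, Slc6a6, which concentrates taurine, read 221, or 9.60 times the blank limit. The creatine carrier Slc6a8 lay between the limits at 44.4, as did Slc6a18 at 24.8 and Slc6a19 at 27.8, a pair of neighbours on chromosome 13 known from kidney and gut. Slc6a7, Slc6a14, Slc6a15, Slc6a16 and Slc6a17 read from 18.4 to 22.9 and were not over the blanks. Of 7 listed genes that make or use creatine and taurine, 5 lay over the receptor limit, or 71.4%, beside 42.7% of all genes. The list was chosen with earlier results of these data known, so its share carries no test. Gatm, the first enzyme of creatine synthesis, read 1312 and the creatine kinase Ckb read 1419. Csad, an enzyme of taurine synthesis, read 115. On the same list Cdo1 lay between the limits at 45.8 and Ckmt1, at 19.0, was not over the blanks.

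Of the facilitative sugar carriers, 5 of 11 genes lay over the receptor limit and 9 over the blanks, shares of 45.5% and 81.8% that are near the 42.7% and 72.8% of all genes. Slc2a1, which encodes GLUT1, the general glucose carrier, read 369 and, in the authors' deposited table, 169. Slc2a3, the high-affinity glucose carrier GLUT3, read 274. Slc2a6, which encodes GLUT6, a carrier of lysosomal membranes known to be raised in inflammatory macrophages, read 966, or 42.0 times the blank limit. Slc2a12 read 83.6, and the urate carrier Slc2a9 gave 60.7 and 44.0 on its probes, on different sides of the receptor limit. Slc2a8 at 55.2, the fructose carrier Slc2a5 at 41.1, the insulin-regulated carrier Slc2a4 at 26.8 and Slc2a7 at 25.4 lay between the limits. The liver and islet carrier Slc2a2, at 19.5, and Slc2a10, at 20.4, did not pass the blanks. The promoter of Slc2a1, chr4:119108495-119108744 on the plus strand, is shown as that of the general glucose carrier.
Slc2a1: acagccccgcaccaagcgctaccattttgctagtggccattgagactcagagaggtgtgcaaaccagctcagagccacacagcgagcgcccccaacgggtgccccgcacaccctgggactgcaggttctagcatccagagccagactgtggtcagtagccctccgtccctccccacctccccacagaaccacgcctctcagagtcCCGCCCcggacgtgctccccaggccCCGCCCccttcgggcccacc
It holds 13 CG pairs and the GC box letters at 2 places, 45 and 20 bases before the start, which 16.7% of all windows do.

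Of the 6 sodium-driven sugar and inositol carriers, Slc5a1 (SGLT1, the glucose carrier of gut) lay over the receptor limit, at 58.0, and under it once local background was subtracted. Slc5a10 at 53.9 and the kidney carrier Slc5a2 at 30.9 lay between the limits, as did Slc5a11 at 23.6. Slc5a9 read 22.6 and the inositol carrier Slc5a3 read 19.8. The 10 markers of kidney and gut read from 18.0 to 73.1, with 2 over the receptor limit, and their part in the Slc5a1 signal was not tested. Among SLC5 carriers of other solutes, the vitamin carrier Slc5a6, which takes up biotin and pantothenate, read 62.5. The choline carrier Slc5a7 read 24.1, and the iodide carrier Slc5a5 and the monocarboxylate carriers Slc5a8 and Slc5a12 read from 19.5 to 20.9.

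Of the 4 lactate and pyruvate carriers measured, 3 lay over the receptor limit and all over the blanks, limits that 42.7% and 72.8% of all genes passed. Slc16a1, which encodes MCT1, read 1423, or 61.9 times the blank limit and 681 in the authors' deposited table. Slc16a3, which encodes MCT4, the lactate exporter of strongly glycolytic cells, read 697, or 30.3 times the blank limit. Slc16a7 (MCT2), which favours uptake, read 4.41 times the blank limit. Slc16a8, the MCT3 of retinal pigment epithelium, lay between the limits at 26.2. The Slc16a1 spot stood 2.48 times over its local background of 574, and the Slc16a3 spot 3.18 times over one of 219. The promoters of the genes for MCT1 and MCT4 are shown because both genes passed the receptor limit in every setting tried. The windows are chr3:104638414-104638663 for Slc16a1 and chr11:120948817-120949066 for Slc16a3, both on the plus strand.
Slc16a1: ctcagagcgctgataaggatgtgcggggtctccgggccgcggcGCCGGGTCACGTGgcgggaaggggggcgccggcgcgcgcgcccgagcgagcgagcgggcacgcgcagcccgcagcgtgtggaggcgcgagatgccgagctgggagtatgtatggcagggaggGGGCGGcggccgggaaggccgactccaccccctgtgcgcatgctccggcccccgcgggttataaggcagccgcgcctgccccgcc
Slc16a3: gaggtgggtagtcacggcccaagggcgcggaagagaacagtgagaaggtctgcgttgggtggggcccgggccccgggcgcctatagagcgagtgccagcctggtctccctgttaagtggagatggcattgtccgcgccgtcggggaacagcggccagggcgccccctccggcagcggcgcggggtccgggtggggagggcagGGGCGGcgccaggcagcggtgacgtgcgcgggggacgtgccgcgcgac
They hold 37 and 29 CG pairs and a GC box each. That of Slc16a1 also holds an E-box, as do 6.02% of all windows, whose letters overlap a match to the antioxidant response core.

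Other SLC16 proteins carry thyroid hormones, ketone bodies or creatine, or have no settled substrate. Slc16a6, linked to export of ketone bodies, read 332, or 14.5 times the blank limit. Slc16a12, a creatine carrier, read 60.8. Slc16a13 at 50.3 and its neighbour on chromosome 11, Slc16a11, at 28.3 lay between the limits, as did Slc16a5 at 25.4 and Slc16a9 at 23.7. Slc16a4 and Slc16a14 read 21.3 and 20.9. Over all 8 pairs of carriers that neighbour each other in the genome, 6 pairs had the same call. The 2 with different calls were Slc38a2 with Slc38a4 and Slc6a12 with Slc6a13. Among the pairs with the same call, only Slc38a1 with Slc38a2 lay over the receptor limit. Some pairs share a gene, and the share of same calls over all neighbouring genes was not taken, so these counts carry no result about neighbours.

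The partners, sensors and enzymes that work with these carriers were measured too. Basigin (Bsg), the chaperone that brings MCT1 and MCT4 to the membrane, read 627, and its relative neuroplastin (Nptn) read 1538. Embigin (Emb), the partner of MCT2, read 17.6, and Cltrn, the kidney partner of SLC6 carriers, read 21.2. Of 11 genes of lactate and pyruvate handling, 6 lay over the receptor limit, or 54.5%, beside 42.7% of all genes. Ldha read 14684, while Ldhb, the other main chain of lactate dehydrogenase, read 19.1. The mitochondrial pyruvate carrier gene Mpc1 gave 1201 on 1 probe and 30.4 on another. Of 9 genes listed for hexose entry and its control, 7 lay over the receptor limit, or 77.8%, beside 42.7% of all genes. Among them were the hexokinase Hk2 at 582 and Txnip, which lowers GLUT1 at the membrane, at 2022. The glucose-6-phosphatase genes G6pc and G6pc3, also among them, read 79.3 and 384, so the share does not stand for entry alone. Pfkfb2 and Pfkfb4 lay between the limits, at 39.7 and 27.4. These lists were chosen with earlier results of these data known, so their shares carry no test.

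Of 29 genes of the mTORC1 sensing machinery, 28 lay over the blank limit and 23 over the receptor limit. The latter share was 79.3%, beside 42.7% of all genes, and the median of the 29 genes was 158. Mlst8 and Castor2 count by their highest probes, at 84.6 and 174, and their other probes read 21.0 and 32.3. Between the limits lay Rragb, Rragd, Wdr59, Tsc1 and Depdc5, from 24.4 to 32.9. The lysosomal anchors Lamtor1 to Lamtor5 read from 864 to 2978, and Rraga, a GTPase that recruits mTORC1, read 844. The leucine sensor gene Sesn2 read 438 and Castor1, which encodes an arginine sensor, read 107, while Sesn3 at 20.4 was not over the blanks. Of 19 genes of the amino acid response, 18 lay over the receptor limit, or 94.7%, beside 42.7% of all genes. Atf4, the transcription factor of that response, read 2931, and its targets Asns and Psat1 read 912 and 4459. Trib3 lay between the limits at 39.2. Both lists were chosen with earlier results of these data known, so their shares carry no test.

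Of 13 genes for enzymes that use the carried amino acids, 11 lay over the blanks and 10 over the receptor limit. Those shares were 84.6% and 76.9%, beside 72.8% and 42.7% of all genes. This list too was chosen with earlier results of these data known. The glutamate-cysteine ligase chains Gclc and Gclm, which use the cysteine that xCT supplies as cystine, read 655 and 940. Odc1, the ornithine decarboxylase of polyamine synthesis, read 1566, and Glud1, which deaminates glutamate, read 1974. The arginine users Arg1 and Nos2 read 18.7 and 19.5, and Arg2 read 25.6. Slc7a1 and Slc7a2 were at blank level too, and a link between these readings was not tested. Ass1 and Asl, which rebuild arginine from citrulline, read 120 and 145.

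Local background differed between spots. Over the 29 carrier probes over the receptor limit, the signal stood 1.34 to 7.87 times over the local background, with a median of 2.89. Probes at 1.5 times or less were those of Slc38a6 and Slc7a6. Over carrier probes not over the blank limit the median was 1.09, and over the empty spots it was 1.20.

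**Figure D4:**
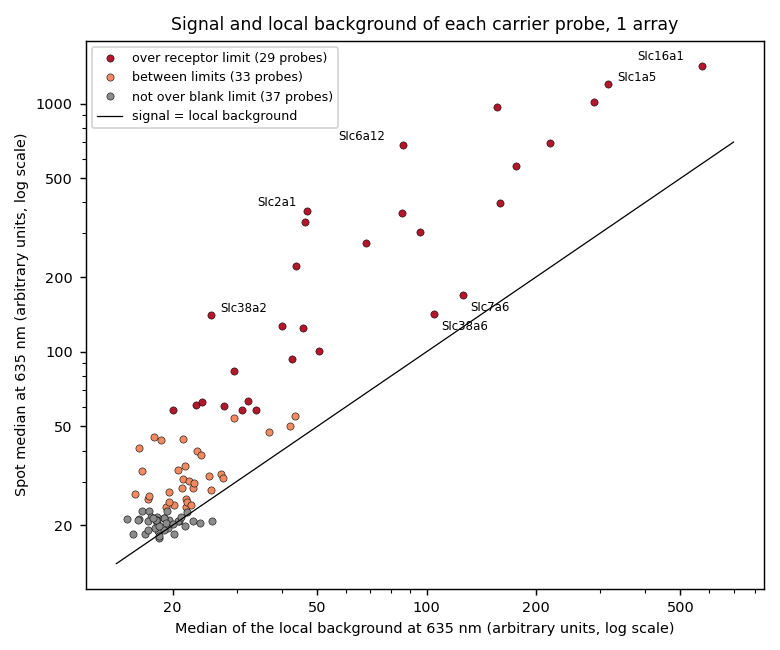
Spot median (vertical axis) against the median of the local background (horizontal axis) for the 99 carrier probes on 1 array, both in arbitrary units on log axes, coloured by call. The line marks equal values; Slc38a6 and Slc7a6 lie close to it, at 1.35 and 1.34 times their local background, and Slc6a12 stands at 7.87 times.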

How the data were processed

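Total RNA of the parental line was amplified to amino allyl RNA and coupled to Cy5, per the labels' protocols. Per the file headers, the deposited scanner file holds the median intensity of each spot at 635 nm and of its local background, from a scan at 3 gains. The software is not named in the labels or headers. A processed intensity per probe was deposited as well, with no account of its making. Compared probe by probe with the scan, it follows the spot median minus the mean of the blanks, times 0.486, and 6784 low probes are empty; it is linear, without centring or direction, and why it was so scaled is unknown.

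Of 27456 spots, 0 had a flag other than OK. The 20690 named probes carry 1 symbol each; 20556 matched the GRCm38.p6 RefSeq gene table, used for names and neighbours. Spots of a probe were averaged. Blanks were trimmed by 5% at each end before the limit of mean plus 2 SD was set. The blank limit was checked on simulated data, in which genes without signal had the mean and SD of the empty spots. That check does not cover probes that read above empty spots without their transcript. The receptor limit was not simulated. All members over the receptor limit are named; the members and lists were chosen with earlier results of these data known. The number of arrays, 1, limits the precision. Alternatives used limma 3.58.1 (normexp, offset 50) in R 4.3.3; other steps used Python 3.11.15 with pandas 2.3.3.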

Additional observations from a re-analysis of the deposited data

How the results depend on the processing

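The 60 carriers over the blank limit became 52 to 63 in the 11 alternatives, with 63 at 1 SD and 52 with normexp or with local background subtracted. Over the limit in every setting were 49 genes, and 29 passed it in no setting, among them Slc7a1, Slc7a2, Slc1a4 and Slc36a1. Within 1 SD of the limit lay 7 genes: Slc16a9, Slc5a7, Slc5a11 and Slc7a8 over it, Slc36a3, Slc5a9 and Slc6a14 not over it.

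The 29 carriers over the receptor limit fell to 15 with the 99th percentile of the receptor probes, where all genes stood at 27.5%; a higher limit calls fewer genes by its construction. They numbered 36 with the 90th percentile, 27 with the lowest probe (without Slc2a9 and Slc7a11), and 29 with normexp or with local background subtracted, where Slc38a3 replaced Slc5a1. The subtraction of local background was chosen after seeing the data. Updated symbols changed 0 members. In each of these settings the share of the carriers was under that of all genes.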

Other observations

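Carriers of related solutes outside these families were measured as well. Of 21 peptide, vesicular, phosphorylated sugar and lysosomal carrier genes, 19 lay over the blank limit and 11 over the receptor limit. Those shares were 90.5% and 52.4%, beside 72.8% and 42.7% of all genes, and the median was 61.2. The list was chosen with earlier results of these data known. Slc15a3 and Slc15a4, which carry peptides and histidine out of lysosomes, read 258 and 269, and the peptide carriers Slc15a1, of intestine, and Slc15a2, of kidney and brain, were not over the blanks. Slc50a1, a sugar carrier, read 444. The lysosomal exporters Ctns (cystine) and Slc66a1 (cationic amino acids) read 81.2 and 61.2, and Slc17a5 (sialic acid) read 151. The vesicular glutamate carriers Slc17a6, Slc17a7 and Slc17a8 lay between the limits, from 23.2 to 26.3.

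Probes of 7 further symbols that start like the carriers were left out because the symbol ends in letters. Slc7a6os, a gene named for its place opposite Slc7a6, read 151, where Slc7a6 read 169. Slc5a4a and Slc5a4b read 21.3 and 20.7, Slc6a20a and Slc6a20b read 33.0 and 23.0, and Slc36a3os and Slc6a19os read 20.9 and 21.8. Why both Slc7a6 and Slc7a6os gave signal was not tested.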
